A study of Mus musculus with 34 samples.

Results

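The genes described here are 8 members of a hepatic drug-metabolism module of the mouse: the cytochrome P450 genes Cyp2a4, Cyp2a5, Cyp2a12, Cyp2a22, Cyp2b9, Cyp2b10 and Cyp2b13, and Nr1i3, which encodes the constitutive androstane receptor, known as CAR. They were picked by gene symbol from 3 deposited RNA sequencing tables. All 8 were rows of the mixed-strain tumor table, which lists 46528 genes. The FVB tumor table of 16140 genes held 4 of them (Cyp2a5, Cyp2a12, Cyp2a22 and Nr1i3), and the table of Rag1-/- livers, with 14074 genes, held 7 (all but Cyp2b13).

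The 34 libraries came from mice with a MYC transgene (TRE-MYC) driven in hepatocytes by LAP-tta, a switch that turns MYC on when doxycycline is withdrawn. Arid1a encodes a subunit of the SWI/SNF chromatin remodeler. Mixed-strain mice (C57/B6, 129 and FVB) gave 8 WT tumors, with genotype LAP-tta-Arid1aflfl;TRE-MYC and no Cre, and 8 Het tumors, LAP-tta-Arid1afl/+;Alb-cre;TRE-MYC, all at about 90 days of age. That Het genotype is the one given for each sample. The protocol text of the same labels gives Het mice the Arid1aflfl genotype of Homo mice, so what Het stands for rests on the sample field. FVB mice gave 4 WT tumors at about 55 days and 4 Het tumors at about 70 days, with those same genotypes, and 4 Homo tumors (Arid1afl/fl with Alb-cre, on LAP-tta and TRE-MYC) at about 100 days. Tumors were taken at death, so age moved with genotype in FVB, and Alb-cre, which is expressed in hepatocytes, was absent from every WT tumor. Loss of Arid1a and presence of Cre therefore cannot be told apart in comparisons with WT, whereas Homo and Het tumors both carried Cre. The last 6 libraries were livers of Rag1-/- mice of the FVB strain, which lack mature lymphocytes, with LAP-tta-WT;TRE-MYC, about 42 days old and 14 days after adenovirus. The virus carried Cre in 3 (ad-Cre) and human ARID1A in 3 (ad-ARID1A), so added ARID1A and the absence of viral Cre cannot be told apart. The labels call these samples liver by tissue and tumor by source.

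CAR is a nuclear receptor that sits in the cytoplasm of hepatocytes in a chaperone complex, enters the nucleus when phenobarbital-like compounds lower EGF receptor signaling or when a ligand binds it, and there pairs with the retinoid X receptor (Rxra) on enhancers of drug-metabolism genes. Cyp2b10 is the classical CAR target of mouse liver. Cyp2b9 and Cyp2b13 are close relatives that are expressed mainly in female liver under the pattern of growth hormone secretion. Cyp2a5 is the mouse coumarin 7-hydroxylase, Cyp2a4 is a steroid 15-alpha-hydroxylase with a female bias that differs from Cyp2a5 at few residues, and Cyp2a12 hydroxylates steroids and bile acids. Cyp2a22 is a less studied relative of Cyp2a12.

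The 7 P450 genes lie in 1 cluster on chromosome 7 and Nr1i3 lies on chromosome 1 (171213970 to 171220701, plus strand, GRCm38). In rising coordinates the cluster genes are Cyp2b10 (25897620 to 25926624), Cyp2b13 (26061497 to 26096197), Cyp2b9 (26173411 to 26210661), Cyp2a4 (26307169 to 26315088), Cyp2a5 (26835305 to 26843548), Cyp2a22 (26931631 to 26939384) and Cyp2a12 (27029081 to 27037375). Cyp2a22 is on the minus strand and the other 6 are on the plus strand. The gene coordinates above are from GENCODE, whose starts can differ from those of RefSeq and lie inside some of the windows below. The 250 bases before the RefSeq start of 6 of the cluster genes are shown because close copies within this cluster had unequal values after ad-ARID1A. They are from RefSeq on GRCm38.p6, at chr7:26306942-26307191 for Cyp2a4, chr7:26835089-26835338 for Cyp2a5, chr7:26939387-26939636 (minus strand) for Cyp2a22, chr7:27028840-27029089 for Cyp2a12, chr7:26173159-26173408 for Cyp2b9 and chr7:25897408-25897657 for Cyp2b10. Capitals mark matches to the short motifs named after them.
Cyp2a4: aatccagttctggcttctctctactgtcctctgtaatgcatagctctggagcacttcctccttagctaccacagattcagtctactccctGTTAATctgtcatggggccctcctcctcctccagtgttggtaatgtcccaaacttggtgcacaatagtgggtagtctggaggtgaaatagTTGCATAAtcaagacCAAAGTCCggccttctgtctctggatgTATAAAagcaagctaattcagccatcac
Cyp2a5: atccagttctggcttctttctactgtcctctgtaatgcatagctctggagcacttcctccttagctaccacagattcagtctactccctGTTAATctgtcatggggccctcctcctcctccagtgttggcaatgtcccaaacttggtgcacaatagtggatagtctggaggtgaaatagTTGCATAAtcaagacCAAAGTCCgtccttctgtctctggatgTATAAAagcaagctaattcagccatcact
Cyp2a22: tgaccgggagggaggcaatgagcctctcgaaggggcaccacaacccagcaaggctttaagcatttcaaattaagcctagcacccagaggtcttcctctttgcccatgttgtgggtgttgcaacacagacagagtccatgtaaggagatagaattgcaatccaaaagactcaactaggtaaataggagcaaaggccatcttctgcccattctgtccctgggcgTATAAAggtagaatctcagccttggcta
Cyp2a12: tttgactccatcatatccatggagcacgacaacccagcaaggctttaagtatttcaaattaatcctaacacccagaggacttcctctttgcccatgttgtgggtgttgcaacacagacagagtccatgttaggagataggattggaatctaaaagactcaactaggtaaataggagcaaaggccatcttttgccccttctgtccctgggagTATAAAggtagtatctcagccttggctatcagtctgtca
Cyp2b9: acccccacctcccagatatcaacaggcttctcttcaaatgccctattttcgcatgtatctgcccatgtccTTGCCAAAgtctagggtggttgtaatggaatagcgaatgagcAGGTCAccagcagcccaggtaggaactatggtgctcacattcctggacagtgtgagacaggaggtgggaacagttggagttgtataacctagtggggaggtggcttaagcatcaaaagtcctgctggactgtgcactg
Cyp2b10: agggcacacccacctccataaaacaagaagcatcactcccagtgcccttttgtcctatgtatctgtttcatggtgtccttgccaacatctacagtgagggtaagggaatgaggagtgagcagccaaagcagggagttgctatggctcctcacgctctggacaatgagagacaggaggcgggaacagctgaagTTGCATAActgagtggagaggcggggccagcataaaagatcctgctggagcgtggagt

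All 8 members had an entry in the RefSeq promoter table. The Cyp2a4 and Cyp2a5 stretches were identical at 245 of 249 aligned bases (98.4%), those of Cyp2a12 and Cyp2a22 at 213 of 232 (91.8%), and those of Cyp2b9 and Cyp2b13 at 248 of 250 (99.2%). Cyp2b9 and Cyp2b10 shared 182 of 240 aligned bases (75.8%). Motifs were searched on both strands, and no matches overlapped each other in these promoters. The TATA box letters TATAAA stand in 12.31% of 32536 mouse promoters of this length. They were found 28 to 39 bases before the RefSeq start in the 4 Cyp2a genes. The Cyp2a4 and Cyp2a5 promoters also held an HNF1-type GTTAAT (6.47% of promoters), an HNF4-type CAAAGTCC (1.2%) and a C/EBP-type TTGCNNAA (9.57%). The last of these was present in the 3 Cyp2b promoters too, where Cyp2b9 and Cyp2b13 also held the nuclear receptor half-site AGGTCA (14.04%). The STAT5 and BCL6-type TTCNNNGAA (7.04% of promoters) was in none of the 8 windows. A match describes letters in the window, not binding.

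The likeness continues into the transcripts and bears on every value below. Of the 50-base windows of the Cyp2a4 transcript 36.1% also occur in Cyp2a5, and 31% of those of Cyp2a5 occur in Cyp2a4. The share was 27.5% for Cyp2a12 and 25.7% for Cyp2a22, each in the other, 10.8% for Cyp2b9 in Cyp2b13, 7.82% for Cyp2b10 in Cyp2b13, and 0 for Nr1i3. How reads that fit several genes were counted was not given in the sources used here, so the split between close copies is uncertain.

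Values are CPM, a read count scaled to the depth of its library. In the FVB and Rag1-/- tables a gene at or below 1 CPM in a library is listed at 0. Depth was 2.29 to 5.28 M reads per mixed-strain library, 6.64 to 12.025 M per FVB library and 8.72 to 10.6 M per Rag1-/- library, which makes the mixed-strain values of low genes the least precise. Mouse Arid1a ran from 314 to 490.1 CPM in mixed-strain WT and from 249.7 to 329.8 in Het, with a log2 fold change of -0.41 ± 0.09 SE (limma, adjusted p = 0.083). In FVB it was 212 to 311 CPM in WT, 185 to 292 in Het and 172 to 256 in Homo tumors. It was 114 to 116 CPM after ad-Cre and 111 to 149 after ad-ARID1A. These values count the whole gene, including parts that stay after Cre, and not the human transgene, so they are no check of the labels. Hepatocyte markers, Apob among the top 2 in every group, were at a summed 4140 to 15938 CPM in tumors and 85057 to 107229 CPM in Rag1-/- livers. Sex is not stated in the labels. The mean level of the Y-linked genes lay between 5.14 and 7.18 log2 units in all 34 libraries, so Y-linked transcripts were present in each of them.

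In the Rag1-/- livers, added ARID1A was compared with Cre virus. Cyp2b9, Cyp2a4 and Cyp2a22 rose and passed the test, Cyp2a5 was higher in every ad-ARID1A liver but missed the threshold, and Cyp2a12, Cyp2b10 and Nr1i3 overlapped between the groups. Thus 3 of 7 members were higher at an adjusted p under 0.05 (limma, Benjamini-Hochberg over all genes of the table), where 0.277% of all genes were called higher and 0.32% in either direction. The median fold change over all genes was 0.09 on the log2 scale.

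Cyp2b9 was listed at 0 in 2 ad-Cre livers and stood at 1.22 CPM in replicate 2, against 12.2, 14.2 and 6.41 CPM in the ad-ARID1A livers. All 3 ad-ARID1A values were thus above all 3 ad-Cre values, as for 13.9% of all genes. Its log2 fold change on the floored scale was 3.28 ± 0.34 SE (limma, adjusted p = 0.00589), which understates the change because of the floor. The floor also narrows the ad-Cre spread that enters this SE and p-value. The SD was 0.17 log2 units after ad-Cre and 0.61 after ad-ARID1A.

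Cyp2a4 was listed at 0 in ad-Cre replicate 1 and was 1.51 and 4.69 CPM in replicates 2 and 3. The ad-ARID1A livers had 44.3, 21.6 and 15.03 CPM, and the lowest of these was above the highest control. The log2 fold change was 3.66 ± 0.55 SE (adjusted p = 0.0313, limma). Its near-copy Cyp2a5 was already well expressed in the controls, at 36.3, 59.3 and 67.2 CPM, and reached 159.8, 115 and 82.1 CPM after ad-ARID1A. Those groups did not overlap either, but the log2 fold change of 1.13 ± 0.26 SE missed the threshold (adjusted p = 0.135), and 13.9% of all genes were likewise higher with no overlap.

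Cyp2a22 was 1.74, 2.55 and 1.72 CPM in the ad-Cre livers and 11.5, 6.63 and 6.63 CPM after ad-ARID1A. With higher values and no overlap between groups, as for 13.9% of all genes, it rose by a log2 fold change of 2.02 ± 0.31 SE (adjusted p = 0.0313, limma). Its closest relative Cyp2a12 stood at 357, 393 and 437 CPM after ad-Cre and at 413, 377 and 434 CPM after ad-ARID1A. The Cyp2a12 log2 difference was 0.05, with a 95% interval of -0.17 to 0.26 (adjusted p = 0.88), so the interval of this abundant gene does not reach the sizes seen for the 3 that passed. Whether Cyp2a22 and Cyp2a12 differ in response was not tested.

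Cyp2b10 stayed near the floor. It was listed at 0, then at 1.32 and 1.95 CPM, in the ad-Cre livers, and was 1.85, 1.33 and 3.43 CPM in the ad-ARID1A livers. The log2 difference of 0.57 had a 95% interval of -0.41 to 1.56 (adjusted p = 0.639). Nr1i3 itself was 10.4, 6.96 and 15.3 CPM after ad-Cre and 12.2, 9.99 and 14.4 CPM after ad-ARID1A. Its log2 difference of 0.22 had a 95% interval of -0.40 to 0.84 (adjusted p = 0.783). The receptor's transcript thus overlapped between the groups, as did that of its classical target.

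**Figure D1:**
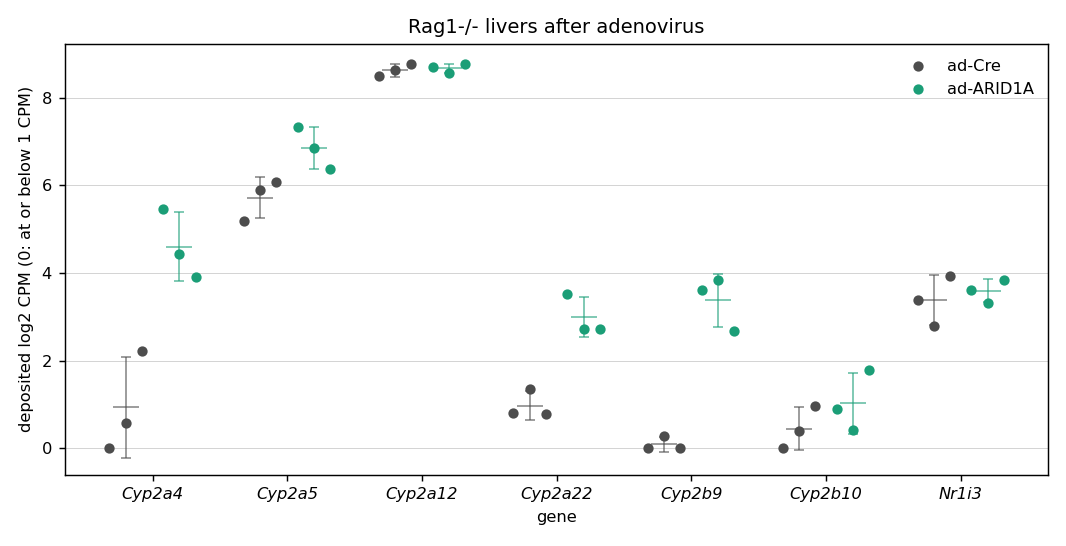
Deposited log2 CPM of the 7 members in the Rag1-/- table, 1 point per liver, with the mean and SD of 3 ad-Cre (gray) and 3 ad-ARID1A (green) livers; a value of 0 means at or below 1 CPM. Cyp2a4, Cyp2a5, Cyp2a22 and Cyp2b9 show no overlap between groups, and Cyp2a12, Cyp2b10 and Nr1i3 overlap.

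Per kilobase of exon, the members differed widely in these livers. In the ad-Cre group the median level was 113.8 CPM per kb for Cyp2a12, 28.6 for Cyp2a5, 2.36 for Nr1i3 and 0.866 for Cyp2a4. After ad-ARID1A the medians were 119.5 for Cyp2a12, 55.6 for Cyp2a5, 12.4 for Cyp2a4, 6.51 for Cyp2b9, 2.77 for Nr1i3, 1.93 for Cyp2a22 and 0.877 for Cyp2b10. The ranges of neighbors in that order did not overlap between Cyp2a12 and Cyp2a5, nor between Cyp2a5 and Cyp2a4 (39.6 to 77.1 against 8.65 to 25.5 CPM per kb). Cyp2b9, at 3.42 to 7.58 CPM per kb, lay below Cyp2a4, and Cyp2b10, at 0.629 to 1.63, was the lowest. The place of Nr1i3 depends on the length used. Per kb of all its exons it was at 2.26 to 3.27 CPM, below Cyp2b9 and overlapping Cyp2a22 (1.93 to 3.33). Per kb of its principal transcript it was at 7.06 to 10.2 CPM, with a higher median than Cyp2b9 (8.63 against 6.51) and an overlapping range, and above Cyp2a22 (3.69 to 6.39).

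The 3 calls rest on few livers. Without ad-Cre replicate 1, ad-ARID1A replicate 1 or ad-ARID1A replicate 2 no member passed. Without ad-Cre replicate 2 or ad-ARID1A replicate 3 only Cyp2b9 passed (adjusted p = 0.0308 and 0.0104, limma), and without ad-Cre replicate 3 only Cyp2a4 did (adjusted p = 0.03). The log2 fold change ranged over these 6 fits from 3.05 to 3.62 for Cyp2b9, from 3.19 to 4.31 for Cyp2a4 and from 1.75 to 2.20 for Cyp2a22. After quantile normalization only Cyp2b9 passed, and Cyp2a4 and Cyp2a22 both had an adjusted p of 0.0544. Cyp2b9 and Cyp2a22 had a mean log2 CPM under 2, so only Cyp2a4 of the 3 was tested, and passed (adjusted p = 0.0466, limma), once genes below that level were removed.

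Genes around the receptor were counted in the Rag1-/- livers as well. Of 30 measured CAR partners and upstream regulators, 20 were higher and 10 lower after ad-ARID1A, where 33.5% of all genes were lower. The list median was 0.12 against 0.09 over all genes, so the list as a whole lay near all genes. Of the 30 genes, 3 passed an adjusted p under 0.05 (limma), all of them higher, where 0.277% of all genes were called higher. The 3 were Dbp, Tef and Hlf, which encode the PAR bZIP transcription factors, clock-controlled proteins known to act on Cyp2a4, Cyp2a5 and Nr1i3 in mouse liver. This list, like the others below, was chosen with earlier results of these data known. Genes that pass on it are therefore a description and no independent support. Dbp was 17.9, 15.03 and 16.7 CPM after ad-Cre and 71.5, 76.6 and 49.5 CPM after ad-ARID1A, a log2 fold change of 1.97 ± 0.17 SE (limma, adjusted p = 0.00234). Tef was 82.1, 88.0 and 74.0 CPM against 164, 162 and 170.1 CPM (1.03 ± 0.09 SE, adjusted p = 0.00234). Hlf was 64.0, 64.0 and 67.6 CPM against 90.5, 93.7 and 95.01 CPM (0.51 ± 0.08 SE, adjusted p = 0.0376). All 3 genes were higher in every ad-ARID1A liver than in any control, as were 13.9% of all genes. The hour of collection was not given in the sources used here, and its part in these values was not tested.

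Of 21 other CAR target genes measured in the Rag1-/- livers, 15 were higher and 6 lower in direction, in a comparison where 33.5% of all genes were lower, and 1 passed. This was Abcc3, a basolateral efflux transporter of conjugates and bile acids, with a log2 fold change of 1.49 ± 0.21 SE (adjusted p = 0.0265, limma). Ugt1a1, the bilirubin glucuronosyltransferase, was next by p, at 0.77 ± 0.16 SE (adjusted p = 0.0913). Of 13 genes that supply P450 enzymes with electrons and heme, 9 were higher and 4 lower, and 1 passed. This was Por, the reductase that passes electrons to every microsomal P450, at 0.62 ± 0.10 SE (adjusted p = 0.0465, limma). Cyb5a, which donates electrons to some P450 reactions, was at 0.34 ± 0.08 SE (adjusted p = 0.136). Cyp2f2, the only other gene of the chromosome 7 cluster in that table, differed by -0.08 ± 0.10 SE (adjusted p = 0.785).

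Because Cyp2a4, Cyp2b9 and Cyp2b13 are known for a female bias, other sex-biased liver genes were counted in the same livers. Of 9 female-biased genes measured, 8 were higher after ad-ARID1A and none passed, with a median log2 fold change of 0.65 against 0.09 over all genes. The 2 with the smallest p were Hao2, a peroxisomal hydroxy acid oxidase (2.53 ± 0.60 SE, adjusted p = 0.142, limma), and Fmo2, a flavin monooxygenase (0.82 ± 0.28 SE, adjusted p = 0.278). Of 18 male-biased genes 13 were lower, 1 of which passed, with a median of -0.33. That gene was Moxd1, a monooxygenase relative, at 0.05 ± 0.08 log2 CPM after ad-ARID1A and 5.95 ± 2.37 after ad-Cre (SD, n = 3 each, adjusted p = 0.0313). Elovl3, a fatty acid elongase, was at -0.87 ± 0.21 SE (adjusted p = 0.15). The mean of the Y-linked genes was 5.97 to 6.05 log2 units in all 6 livers.

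Cell type markers were summed in the same livers. The summed level of 16 hepatocyte genes was 85057 to 97731 CPM after ad-ARID1A and 100732 to 107229 CPM after ad-Cre, and the groups did not overlap. The pericentral hepatocyte genes, 15 measured of 16 and led in level by Cyp2e1, summed to 4500 to 4873 CPM against 3622 to 4386 CPM, with 0 of 15 passing. Stellate cell and fibroblast genes (12 of 12 measured) summed to 536 to 633 against 315 to 574 CPM, and endothelial genes (12 of 12) to 524 to 587 against 457 to 530 CPM. Macrophage and Kupffer cell genes (12 of 12) overlapped, at 312 to 401 against 333 to 442 CPM. Neutrophil and T and NK cell lists each had 1 measured gene and the B and plasma cell list had none. The part of the hepatocyte, pericentral, stellate and endothelial levels in the P450 values was not tested. In bulk tissue, fewer cells of a type and less RNA per cell cannot be told apart.

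In mixed-strain tumors, Het was compared with WT to ask what differs with loss of an Arid1a copy, which came with Cre. All 7 tested members were lower in Het tumors and none passed the threshold (0 of 7, where 0.16% of 17552 genes passed in either direction and 0.12% were lower). The members' median log2 fold change was -2.02, against 0.05 over all genes, 43.9% of which were lower. Without adjustment 4 P450 genes, Cyp2a4, Cyp2a5, Cyp2a12 and Cyp2b9, had p under 0.05, as did 15.8% of all genes. Cyp2b10 had too few reads for the test.

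Cyp2a5 had the smallest p of the members. It was 1.51, 301, 6.78, 5.82, 17.0, 9.48, 8.65 and 57.9 CPM in the 8 WT tumors, with a median of 9.06. In the 8 Het tumors it was 0 in replicates 3 and 6 and at most 3.41 CPM, with a median of 1.52. Only WT replicate 1 lay within the Het range. The log2 fold change was -3.35 ± 0.80 SE (limma on log2(CPM + 0.5), adjusted p = 0.092). With array weights, which give less weight to variable libraries, Cyp2a5 passed at -3.49 (adjusted p = 0.0239).

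The other Cyp2a genes followed with wider overlap. Cyp2a4 ran from 0.569 to 69.0 CPM in WT (median 2.04) and from 0 to 1.13 in Het (median 0.424), a log2 fold change of -2.06 ± 0.66 SE (adjusted p = 0.171, limma). Cyp2a12 ran from 3.03 to 187.7 CPM in WT (median 30.7) and from 0.753 to 59.1 in Het (median 2.69), a difference of -2.08 ± 0.83 SE (adjusted p = 0.25). Het replicate 5 held that highest Het value, above 7 of the 8 WT tumors. Cyp2a22 ran from 0 to 13.6 CPM in WT (median 2.92) and from 0 to 3.11 in Het (median 0.341), with 4 Het tumors at 0 (-1.43 ± 0.68 SE, adjusted p = 0.317).

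Cyp2b9 was found in 6 of 8 WT tumors, at up to 5.77 CPM with a median of 2.68. A single read, 0.310 CPM in replicate 5, was found in the 8 Het tumors together. The log2 fold change was -2.02 ± 0.53 SE (adjusted p = 0.122, limma), and 2 WT tumors were also at 0. Cyp2b13 ran from 0 to 5.77 CPM in WT and from 0 to 1.55 in Het (-0.37 ± 0.44 SE, adjusted p = 0.701). Cyp2b10, the classical CAR target, had 0 to 4 reads per library in both groups, and a difference was not detectable at this depth.

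Nr1i3 ran from 0.753 to 19.3 CPM in WT tumors (median 5.001) and from 0.189 to 9.13 CPM in Het tumors (median 5.25). The groups overlapped widely, and the medians differed in the opposite direction to the means. Its log2 fold change was -0.78 ± 0.61 SE, with a 95% interval of -2.07 to 0.51 (adjusted p = 0.544, limma). Het replicates 1, 4 and 6 held 0.659, 0.495 and 0.189 CPM and the other 5 Het tumors 4.78 to 9.13 CPM.

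**Figure D2:**
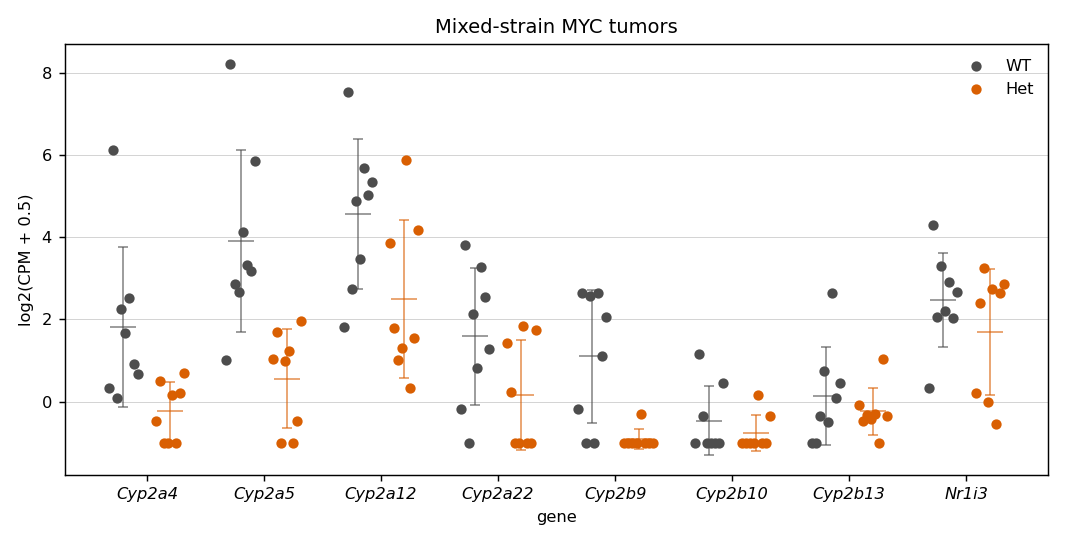
Levels of the 8 members in mixed-strain tumors as log2(CPM + 0.5), 1 point per tumor, with the mean and SD of 8 WT (gray) and 8 Het (orange) tumors; the lowest value is 0 reads. Cyp2a5 and Cyp2b9 sit lower in most Het tumors, while Nr1i3 overlaps.

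WT replicate 2 was the highest WT tumor for Cyp2a4, Cyp2a5, Cyp2a12, Cyp2a22, Cyp2b10 and Nr1i3. Without it, the log2 fold change was -2.73 for Cyp2a5 (adjusted p = 0.118, limma), -1.45 for Cyp2a4 (adjusted p = 0.2), -1.65 for Cyp2a12 and -1.80 for Cyp2b9, so the direction held for all 7 members tested. Beside the members, 20 of 22 other CAR target genes were lower in Het with a median of -1.59 and none passed. Ugt1a1 (-2.70 ± 0.59 SE, adjusted p = 0.0798) and the aldose reductase relative Akr1b7 (-2.81 ± 0.77 SE, adjusted p = 0.133) had the smallest p there. Among 30 partners and regulators, 10 were higher and 20 lower, with a median of -0.16, 0 passing, and the smallest p for the coactivator Ncoa1 (-0.64 ± 0.20 SE, adjusted p = 0.162) and the corepressor Nr0b2 (-2.55 ± 0.84 SE, adjusted p = 0.175). All 16 hepatocyte genes were lower in Het with a median of -0.35 and 0 passing, and their summed level was 4140 to 8247 CPM in Het and 6400 to 14700 CPM in WT. Of 14 pericentral hepatocyte genes tested, 13 were lower in Het and 1 was higher, with a median of -1.18 and 0 passing. Neutrophil genes, 10 tested of 11, were all lower in Het with 0 passing (median -1.74, S100a8 at -2.86 ± 0.63 SE, adjusted p = 0.0798). Their summed level had a median of 8.65 CPM in Het and 48.6 in WT. All 9 erythroid genes were lower (median -0.90), as were 9 of 12 endothelial genes (median -0.79) and 10 of 12 stellate cell and fibroblast genes (median -0.52). Of 9 biliary and progenitor genes tested 7 were higher, with a median of 0.09, Epcam at 2.02 ± 0.72 SE (adjusted p = 0.212) and Cldn7 at 1.76 ± 0.70 SE (adjusted p = 0.244). No gene of these lists passed, and their part in the lower P450 values was not tested.

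Both sex-biased lists were mostly lower in the mixed-strain Het tumors. Of 10 female-biased genes 9 were lower in Het (median -0.88), and of 15 male-biased genes 15 were lower (median -1.04), with none passing in either list. Cyp3a16, a female-biased P450, was at -2.35 ± 0.59 SE (adjusted p = 0.111, limma) and Fmo2 at -2.40 ± 0.70 SE (adjusted p = 0.148). The male-biased P450 Cyp2d9 was at -2.21 ± 0.59 SE (adjusted p = 0.128) and the complement gene C6 at -2.43 ± 0.76 SE (adjusted p = 0.164). Of the neighboring cluster genes, Cyp2f2 was at -2.88 ± 0.85 SE (adjusted p = 0.153) and Cyp2s1 at 1.49 ± 0.80 SE (adjusted p = 0.369). Of 13 electron and heme supply genes 10 were lower with 0 passing, led by p by Por (-0.60 ± 0.22 SE, adjusted p = 0.212) and the cytochrome b5 reductase Cyb5r3 (-0.36 ± 0.15 SE, adjusted p = 0.267).

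In FVB tumors, 3 genotypes were compared, and both comparisons with WT share the same 4 WT tumors. Cyp2a5 was at or near the floor in every Het and Homo tumor, Cyp2a12 was lower in Homo tumors than in any WT tumor, and neither passed the threshold. No member of the 4 was called in Het against WT (0.0248% of 16140 genes), in Homo against WT (0.0434%) or in Homo against Het (0%). At an unadjusted p under 0.05 the same comparisons gave 2293, 1617 and 623 genes.

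Cyp2a5 was 1.18, 20.4, 14.7 and 5.90 CPM in the 4 WT tumors. It was listed at 0 in 3 Het tumors and was 1.40 CPM in Het replicate 2, and it was listed at 0 in 3 Homo tumors and was 1.01 CPM in Homo replicate 4. Het and WT overlapped through WT replicate 1, and Homo lay below all WT tumors. The log2 fold change was -2.63 ± 0.65 SE in Het (limma, adjusted p = 0.105) and -2.75 ± 0.65 SE in Homo (adjusted p = 0.161). Groups without overlap and lower in Homo were found for 1.98% of all genes.

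Whether any member passed depended on WT replicate 1, the WT tumor lowest in Cyp2a5, and on the weighting. Without that tumor Cyp2a5 fell by 3.47 in Het (adjusted p = 0.00705, limma) and by 3.59 in Homo (adjusted p = 0.00351) against WT on the log2 scale, and it was the only member that passed. The floor narrows the Het and Homo spread that enters these p-values, with a Cyp2a5 SD of 0.245 and 0.005 log2 units. With all tumors kept and array weights, Cyp2a5 (-2.29, adjusted p = 0.0365) and Cyp2a12 (-2.52, adjusted p = 0.0438) passed in Het against WT, as did 2287 genes in all, and no member passed in Homo against WT. The interval of Homo against Het was -1.51 to 1.27 around -0.12, a comparison of libraries mostly listed at 0.

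Cyp2a12 was 3.97, 35.0, 22.8 and 11.8 CPM in WT, 1.19, 5.62, not above 1 and 9.25 CPM in Het replicates 1 to 4, and 2.40, 2.73, 2.41 and 3.81 CPM in Homo. Het and WT overlapped, and all Homo tumors lay below all WT tumors, as for 1.98% of all genes. The log2 fold change was -2.31 ± 0.73 SE in Het (adjusted p = 0.177, limma) and -2.32 ± 0.73 SE in Homo (adjusted p = 0.289). Homo and Het differed by -0.01 with a 95% interval of -1.58 to 1.56. Cyp2a22 was 1.92 and 2.27 CPM in WT replicates 2 and 3 and was listed at 0 in the other 2 WT tumors and in all 8 Het and Homo tumors.

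Nr1i3 overlapped between all 3 FVB genotypes. It was 4.41, 4.50 and 4.38 CPM in WT replicates 1 to 3 and listed at 0 in replicate 4, 1.19, 2.48, 4.17 and 1.44 CPM in Het, and 7.31, 2.30, 2.81 and 2.91 CPM in Homo tumors. By mean log2 CPM the order was Homo at 1.77 ± 0.75, WT at 1.61 ± 1.07 and Het at 1.04 ± 0.82 (SD, n = 4 each), and no neighbors in it differed beyond their spread. The difference was -0.57 ± 0.55 SE for Het against WT (adjusted p = 0.702, limma), 0.17 ± 0.55 SE for Homo against WT (adjusted p = 0.955) and 0.74 ± 0.55 SE for Homo against Het (adjusted p = 1). Without WT replicate 4, the tumor listed at 0, the difference from WT was -1.11 in Het (adjusted p = 0.244) and -0.37 in Homo (adjusted p = 0.825). Whether Nr1i3 and the Cyp2a genes differ in response was not tested.

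**Figure D3:**
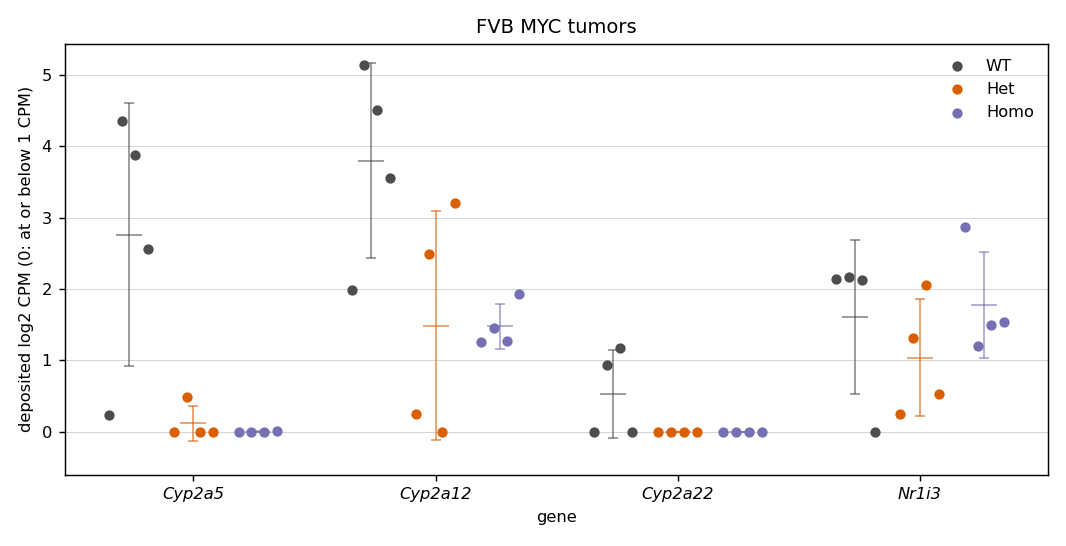
Deposited log2 CPM of the 4 members in the FVB table, 1 point per tumor, with the mean and SD of 4 WT (gray), 4 Het (orange) and 4 Homo (purple) tumors; 0 means at or below 1 CPM. Cyp2a5 is at the floor in 3 of 4 Het and 3 of 4 Homo tumors, and Nr1i3 overlaps in all groups.

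Other CAR targets in FVB had a like direction without passing. Of 21 measured, 18 were lower in Het (median -1.45) and 17 in Homo (median -1.46) against the same WT tumors. The smallest p in Het were those of the P450 genes Cyp2c29 (-3.06 ± 0.69 SE, adjusted p = 0.093, limma) and Cyp1a2 (-2.75 ± 0.68 SE, adjusted p = 0.11). In Homo they were those of Aldh1a1, a retinaldehyde dehydrogenase (-2.55 ± 0.43 SE, adjusted p = 0.067), and Cyp2c29 (-3.52 ± 0.69 SE, adjusted p = 0.104). Between Homo and Het tumors, 5 of the 21 were higher and 15 lower (median -0.14 against -0.04 over all genes), with Aldh1a1 at -0.89 ± 0.43 SE and Abcc3 at -0.35 ± 0.18 SE (adjusted p = 1 for both, limma). Among 31 regulators, 24 were higher and 7 lower in Het, and 20 higher and 11 lower in Homo, with 0 passing. Egfr, whose signaling holds CAR in the cytoplasm, was at -1.33 ± 0.38 SE in Het (adjusted p = 0.146) and -1.61 ± 0.38 SE in Homo (adjusted p = 0.161). Tef was at 0.63 ± 0.16 SE in Het (adjusted p = 0.113) and Foxo1 at 0.44 ± 0.14 SE in Homo (adjusted p = 0.306). Hepatocyte genes overlapped in sum, at 9391 to 15938 CPM in WT, 6680 to 14427 in Het and 10477 to 15838 in Homo tumors, with 10 of 16 higher in Het and 11 of 16 higher in Homo. Of 13 pericentral hepatocyte genes, 11 were lower in Het (median -0.88) and 10 in Homo (median -0.94), with 0 passing. Their part in the P450 values was not tested.

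The other lists were likewise short of the threshold in FVB, apart from Lrat, given below. Of 12 male-biased genes 11 were lower in Het (median -1.44) and 11 in Homo (median -1.44), while of 8 female-biased genes 5 were higher in Het and 7 in Homo. Prlr, the prolactin receptor, was the female-biased gene with the smallest p, at -2.85 ± 0.48 SE in Het (adjusted p = 0.0524, limma) and -2.64 ± 0.48 SE in Homo (adjusted p = 0.0873), and Cux2, a repressor of male-biased genes, was at 0.85 ± 0.26 SE and 1.14 ± 0.26 SE (adjusted p = 0.162 and 0.15). The male-biased Ugt2b1 was at -2.17 ± 0.58 SE in Het (adjusted p = 0.123) and -2.76 ± 0.58 SE in Homo (adjusted p = 0.122). The cluster neighbor Cyp2f2 was at -2.34 ± 0.75 SE in both (adjusted p = 0.179 in Het and 0.302 in Homo). Of the 13 electron and heme supply genes 11 were lower in Het and 12 in Homo. Erythroid and neutrophil markers also varied between the FVB groups. Erythroid sums were 22.2 to 539 CPM in WT, 25.9 to 29.2 in Het and 30.9 to 107 in Homo tumors. Neutrophil sums were 2.53 to 130.3 CPM in WT, 0 to 1.19 in Het and 1.80 to 177.9 in Homo tumors. Of 12 stellate cell and fibroblast genes 1 passed, Lrat, the stellate cell retinol acyltransferase, which was lower in Het (-2.50 ± 0.31 SE, adjusted p = 0.0234, limma). Their part in the P450 values was not tested.

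**Figure D4:**
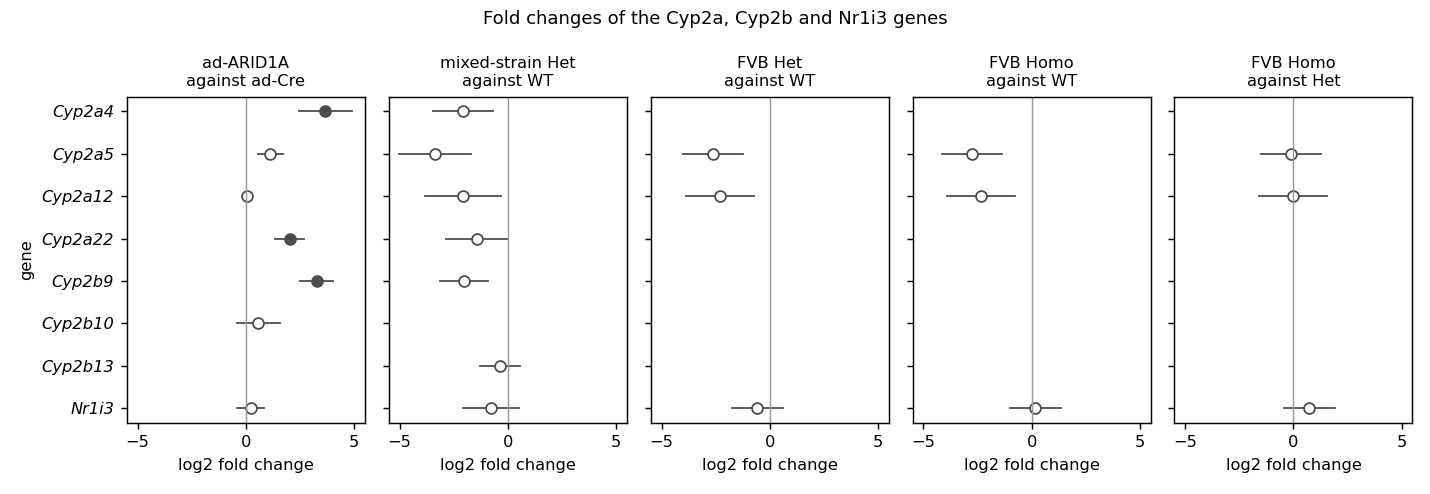
Log2 fold changes (circles) with 95% intervals (lines) of each member in the 5 comparisons; filled circles passed an adjusted p under 0.05, and genes not tested, or with groups listed at 0 throughout (Cyp2a22 in FVB), have no circle. The 3 filled circles are Cyp2a4, Cyp2a22 and Cyp2b9 after ad-ARID1A.

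Levels of Nr1i3 were then set against those of the tested P450 genes across tumors, to see whether they varied together. Cyp2b10, the classical CAR target, was not among them, because it had too few reads in mixed-strain tumors and no FVB values. There were 21 such relations, over all 16 mixed-strain tumors, its 8 WT and 8 Het tumors apart, and the 12 FVB tumors, and none had an adjusted permutation p under 0.05. The lowest was 0.0508, for Cyp2a4 over 16 mixed-strain tumors (r = 0.65, permutation p = 0.00484, rho = 0.58, permutation p = 0.0199) and for Cyp2a12 over the 8 WT tumors (r = 0.89, exact permutation p = 0.00471, rho = 0.74, exact permutation p = 0.0458). Without the 2 tumors farthest from the median of Nr1i3, r was 0.57 for Cyp2a4 (Het replicates 4 and 6 left out) and 0.59 for Cyp2a12 (WT replicates 1 and 2 left out). For Cyp2a5, r was 0.78 within WT, -0.04 without those 2 tumors, and 0.14 within Het, so the relation in WT rested on them. In the 12 FVB tumors r was 0.12 for Cyp2a5, 0.02 for Cyp2a12 and 0.36 for Cyp2a22 (raw permutation p = 0.718, 0.94 and 0.237). Without WT replicate 4 and Homo replicate 1, the 2 FVB tumors farthest from the median of Nr1i3, these were higher, at r = 0.53, 0.36 and 0.51 (raw permutation p = 0.0765, 0.305 and 0.11). Cyp2a22 was above the floor only in FVB WT replicates 2 and 3.

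**Figure D5:**
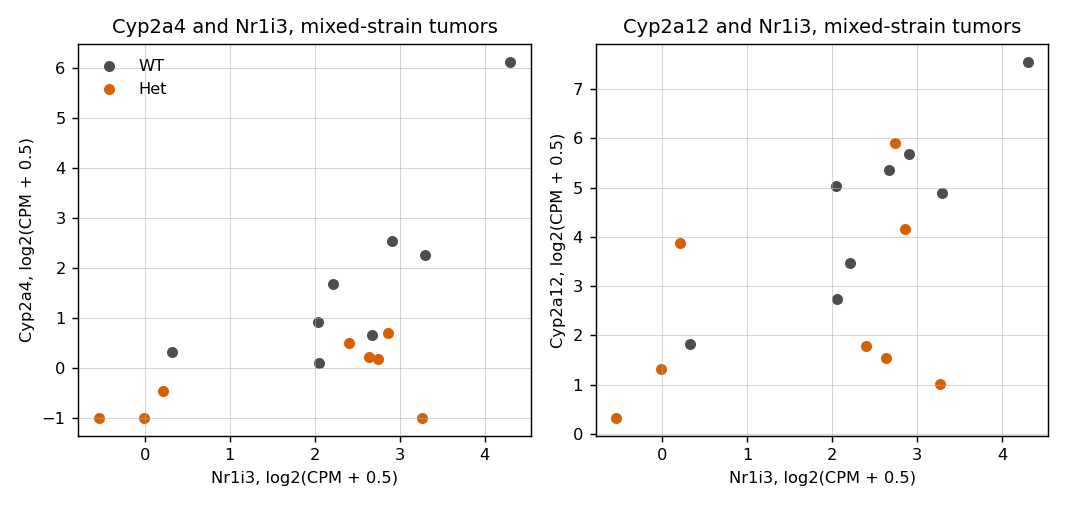
Cyp2a4 (left) and Cyp2a12 (right) against Nr1i3 in mixed-strain tumors, both axes in log2(CPM + 0.5), 1 point per tumor, WT in gray and Het in orange. The tumor at the upper right of both panels is WT replicate 2, and r over the 16 tumors is 0.65 for Cyp2a4 and 0.61 for Cyp2a12.

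As a description over shared libraries, Cyp2a5 varied with most of the other P450 genes. Over 16 mixed-strain tumors Cyp2a5 had r = 0.83 with Cyp2a4, 0.79 with Cyp2a12, 0.70 with Cyp2a22, 0.69 with Cyp2b9, 0.52 with Nr1i3 and 0.05 with Cyp2b13. Cyp2a12 had r = 0.93 with its near-copy Cyp2a22, 0.61 with Nr1i3 and 0.29 with Cyp2b13. Over the 12 FVB tumors Cyp2a5 had r = 0.86 with Cyp2a12 and 0.88 with Cyp2a22. Cyp2a22 was above the floor only in WT replicates 2 and 3, so its r rests on them. Cyp2a5 itself was listed at 0 in 3 of 4 Het and 3 of 4 Homo tumors, so the floor bears on all its FVB correlations. These values share library, depth, genotype and, for near-copies, reads. With Alb, the albumin gene, Cyp2a5 had r = 0.53 in mixed-strain and 0.82 in FVB tumors, and Nr1i3 had r = 0.67 and 0.21.

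The 3 genes most like Cyp2a5 by Pearson r over the 16 mixed-strain tumors were Apon (0.93), an apolipoprotein gene, and the P450 genes Cyp2c39 (0.92) and Cyp2c37 (0.90), the latter a known CAR target. Over the 12 FVB tumors, where Cyp2a5 was at the floor in most Het and Homo tumors, they were Sdr9c7, Mug-ps1 and Akr1c20, each at 0.99. For Nr1i3 they were Errfi1, an inhibitor of the EGF receptor (0.92), Serpina7, which encodes thyroxine-binding globulin (0.92), and Acat3 (0.91) in the mixed-strain tumors. In FVB they were 9430034N14Rik (0.84), the glutathione transferase gene Gsta3 (0.82) and Sectm1a (0.82). No gene was named for both strains, and Cyp2b10 was too low for this measure.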

How the data were processed

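RNA was sequenced from 34 mouse liver tumor and liver samples. Per the submitters' processing notes, reads were processed with Trim Galore, HISAT2, SAMtools and featureCounts on GRCm38 (mm10). Versions, strand and the handling of multi-mapped reads were not given in the sources used here. For the 3 tables the authors deposited log2 values, each table normalized separately. The FVB and Rag1-/- tables hold normalized log2 CPM with 0 for 1 CPM or less. The mixed-strain table is named RPKM, but its deposited log2 values, less the added 1, summed to 999553 to 999898 per library, so they were read as log2(CPM + 1). Depth was recovered from low values that are whole multiples of 1 read (tolerance 0.15 reads, 100% whole). Columns were matched to samples by their labels. The ad-ARID1A columns were matched by number, because their label text spells the ad-Cre name.

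Each table was fitted with limma version 3.58.1 under R 4.3.3 (functions lmFit and eBayes, variance trend on), with 3 FVB groups in 1 fit. The mixed-strain test planned in RPKM used log2(CPM + 0.5) and kept the 17552 genes whose mean CPM reached 0.5. P-values are two-sided, adjusted by Benjamini-Hochberg over all genes of the table, and called under 0.05. Fold changes on these scales understate low genes. Correlations used permutation (100000 resamples, or exact under 10 libraries), adjusted over 21 relations. The limma step was tested on simulated data. Named genes were the members, the 2 smallest p of each pathway list plus any that passed, and the 3 most like Cyp2a5, Cyp2b10 or Nr1i3. Members and lists were chosen with earlier results of these data known. The labels do not say that samples came from separate mice and give no batch, so p-values measure the spread between samples, which may be technical. Alternatives were the pseudocount, the filter on low genes, quantile normalization, array weights, the replicate block and leaving out each library. Leaving out mixed-strain WT 2 with Het 5, FVB WT 1 with WT 2, and FVB WT 2 with WT 3 was added after seeing the data, as was the length of the principal transcript for levels per kb.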

Additional observations from a re-analysis of the deposited data

Results flagged for a closer look

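Among 26 combinations of a member and a group of 4 to 8 libraries, 6 had a library far from the rest of its group. Chance flags about 1 in 20 where values do not tie. Here many values tie at 0 and members share libraries, so the 6 cannot be set against that rate. In the mixed-strain WT tumors, Cyp2a4 stood at 69.0 CPM in replicate 2. In mixed-strain Het tumors, Cyp2b9 had its only read in replicate 5 (0.310 CPM, the others at 0), and Cyp2b13 was 1.55 CPM in replicate 7. In FVB, Cyp2a5 was 1.40 CPM in Het replicate 2 and 1.01 CPM in Homo replicate 4, with the other 3 tumors of each group listed at 0, so the floor itself sets these gaps. Nr1i3 was listed at 0, a value of at most 1.0 CPM, in FVB WT replicate 4, while the other 3 WT tumors were 4.38 to 4.50 CPM.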

How the results depend on the processing

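Among the alternative fits, 13 member fold changes took the other sign or fell to 0, all in values that had not passed. They were Nr1i3 in FVB Homo against WT (-0.17 with array weights, -0.37 to 0.36 leaving out 1 library), Cyp2a12 in FVB Homo against Het (0.06 with quantile normalization, 0.41 with array weights, -0.51 to 0.56 leaving out 1 library), Cyp2a5 there (-0.16 to 0), and in Rag1-/- livers Cyp2a12 (0 with quantile normalization, -0.02 to 0.12 leaving out 1) and Nr1i3 (-0.07 to 0.50). The quantile setting moved the median of all genes in Rag1-/- livers from 0.09 to -0.003. There 22 genes and 1 member passed with it, against 45 and 3, and 1 member passed after removing genes under a mean log2 CPM of 2, which leaves fewer genes tested. Leaving out 1 liver left 0 to 19 genes and 0 to 1 members passing.

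In mixed-strain Het against WT, 28 genes passed in the reported fit, 14 with no filter, 101 with array weights (1 member), 16 without WT 2 and Het 5 together, and 8 to 138 leaving out 1 tumor (0 members). In FVB Het against WT, 4 passed. The count was 1 on log2(CPM + 1), 0 after removing genes under a mean log2 CPM of 2, 2 with quantile normalization, 2287 with array weights (2 members, Cyp2a5 and Cyp2a12), 1 with the 2 groups alone, 1 without WT 1 and WT 2 (1 member), 0 without WT 2 and WT 3, and 0 to 256 leaving out 1 tumor (0 to 1 members). In FVB Homo against WT, 7 passed. The count was 0 after removing genes under a mean log2 CPM of 2, 21 with array weights, 0 with the 2 groups alone, 3 without WT 1 and WT 2 (1 member), 0 without WT 2 and WT 3, and 0 to 36 leaving out 1 tumor (0 to 1 members). In Homo against Het it was 0, and 0 to 3 leaving out 1. The cause of these moves was not tested.

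Correlations of same-numbered libraries did not settle whether replicate numbers pair the samples. The lowest was -0.20 to -0.02 by comparison, and the highest was at most 0.28. The libraries that correlated best with their own number were 3 of 16 in mixed-strain tumors, 4 of 8 in FVB Het against WT, 5 of 8 in Homo against WT, 1 of 8 in Homo against Het and 2 of 6 in Rag1-/- livers. With the replicate block, 75 genes and 1 member (Cyp2a5, -3.35, adjusted p = 0.036, limma) passed in mixed-strain tumors, 0 and 1 genes in FVB Het and Homo against WT, and 59 genes but 1 member in Rag1-/- livers (Cyp2a4 at adjusted p = 0.0544 and Cyp2a22 at 0.0518). Without the 2 tumors farthest in Nr1i3, its correlation was -0.04 with Cyp2a5 in WT, and in Het -0.26 with Cyp2a5, -0.23 with Cyp2a12, -0.37 with Cyp2a22 and -0.05 with Cyp2b13. A fit with a sex term was not run, because the Y-linked mean spanned at most 2.04 log2 units. Few reads limit Cyp2b10, Cyp2b13 and Cyp2b9 in mixed-strain tumors, and the floor of 1 CPM limits Cyp2a5 and Cyp2a22 in FVB.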
